A study of Mus musculus with 4 samples.

Results

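Heat shock proteins are molecular chaperones, which bind unfolded or partly folded proteins. HSP70 chaperones hold short stretches of a client protein in cycles of ATP hydrolysis, J-domain proteins of the HSP40 family deliver the client and start that hydrolysis, and HSP90 chaperones take over part of the clients for later steps of folding, with co-chaperones that set the pace of their ATP cycle. Some of the genes are transcribed steadily in unstressed cells and others mainly after stress, when heat shock factor binds short repeated elements in their promoters. Warm enzymatic dissociation of a tissue can itself induce the latter.

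Of this system, 8 cytosolic genes were examined, given as a list of names with no threshold on their values. They were the HSP70 genes Hspa8 (constitutive) and Hspa1a and Hspa1b (stress-induced), the HSP90 genes Hsp90aa1 (stress-responsive) and Hsp90ab1 (constitutive), the J-domain genes Dnajb1 and Dnaja1, and Ahsa1, which encodes an activator of the HSP90 ATPase. All 8 were among the 20218 genes with at least 1 UMI (unique molecular identifier, the tag of a captured mRNA molecule) in a retained cell. In GRCm38, Hspa8 (ENSMUSG00000015656) lies at chr9:40800984-40810087, Hspa1a (ENSMUSG00000091971) at chr17:34969190-34972156 and Hspa1b (ENSMUSG00000090877) at chr17:34956436-34959238. Hsp90aa1 (ENSMUSG00000021270) lies at chr12:110690605-110702728 and Hsp90ab1 (ENSMUSG00000023944) at chr17:45567775-45573271. Dnajb1 (ENSMUSG00000005483) lies at chr8:83608193-83612653, Dnaja1 (ENSMUSG00000028410) at chr4:40722150-40737149 and Ahsa1 (ENSMUSG00000021037) at chr12:87266479-87273998.

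The genes were measured by Drop-seq, which captures single cells in droplets and counts their mRNAs, in renal cortex of 2 Akita mice (C57BL/6-Ins2Akita/J, a model in which a mutated insulin gene, Ins2, causes diabetes) and 2 wild-type counterparts, with 2 libraries per group. The labels give 8 animals per group for the housing and 1 kidney as the source of cortex, and do not say how the libraries were drawn from those animals. The 4 libraries carry 4 different ages, so they are treated as separate mice. The labelled ages differed by group, 116 and 119 days for Akita but 45 and 51 days for wild type, so genotype and age cannot be told apart in any comparison of the groups. The growth protocol gives 24 weeks of housing, which is longer than these ages. Every cortex was minced, sieved and digested with collagenase IV for 30 minutes at 37 °C, so no library shows the genes without that step.

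The libraries held between 1016719 and 1303453 UMIs. Barcodes with at least 200 detected genes and at most 50% mitochondrial UMIs were retained as cells, 311 and 600 in Akita replicates 1 and 2 and 564 and 441 in Wild-type replicates 1 and 2, with library medians of 746.5 to 835 UMIs per cell. Akita replicate 2 and Wild-type replicate 1 shared 884 barcodes, while every other pair shared 3 or 4. In Akita replicate 2 they accounted for 73.0% of the retained cells and 88.4% of the UMIs of retained cells. In Wild-type replicate 1 these shares were 80.5% and 91.5%. These libraries are therefore not independent as deposited, and results are given also with each shared barcode kept in 1 file only, chosen by the ratio of its UMIs in both files. Clusters named from marker genes gave 1444 proximal tubule-like, 291 loop of Henle-like, 110 intercalated-like, 58 connecting tubule-like and 13 macrophage or dendritic-like cells. Both loop of Henle-like clusters also had 6 distal convoluted tubule markers among their 50 leading genes, including Slc12a3, and the connecting tubule-like cluster had 4 of them beside 4 of its own. Within the proximal tubule-like cells, 1 cluster of 335 cells carried markers of S1 (the first segment) and 1 of 382 cells markers of S3 (the last).

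Promoter windows in the RefSeq table (GRCm38.p6) were matched for 5 of the 8 genes, and Hspa8, Hsp90aa1 and Hsp90ab1 are named only. Each window was searched on both strands for GAANNTTC and TTCNNGAA, pairs of inverted units of the heat shock element, which can overlap. The 3 genes with a match, which include the stress-induced HSP70 pair, are shown by the 250 bases before the start site, 5′ to 3′ on the gene's strand, with the matched letters in capitals. The stretches are chr4:40722218-40722467 (plus strand) for Dnaja1, chr17:34972157-34972406 (minus strand) for Hspa1a and chr17:34959239-34959488 (minus strand) for Hspa1b.
Dnaja1: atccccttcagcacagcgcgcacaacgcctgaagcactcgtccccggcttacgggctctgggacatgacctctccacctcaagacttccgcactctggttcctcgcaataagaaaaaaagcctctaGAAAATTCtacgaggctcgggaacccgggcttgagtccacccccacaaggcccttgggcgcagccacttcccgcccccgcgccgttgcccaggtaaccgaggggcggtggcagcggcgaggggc
Hspa1a: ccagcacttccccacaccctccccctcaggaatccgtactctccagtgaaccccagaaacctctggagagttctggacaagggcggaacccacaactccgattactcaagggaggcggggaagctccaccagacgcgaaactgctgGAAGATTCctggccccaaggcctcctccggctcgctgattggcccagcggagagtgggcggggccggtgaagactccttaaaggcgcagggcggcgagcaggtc
Hspa1b: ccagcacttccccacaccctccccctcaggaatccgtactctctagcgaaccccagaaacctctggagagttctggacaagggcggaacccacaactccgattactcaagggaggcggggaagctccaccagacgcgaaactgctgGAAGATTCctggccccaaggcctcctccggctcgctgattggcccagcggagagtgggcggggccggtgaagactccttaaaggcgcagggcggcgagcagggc
The match lay 124 bases before the start in the first of 3 Dnaja1 windows and 104 bases before it in Hspa1a and Hspa1b. Hspa1a and Hspa1b differed at 3 of these 250 bases. The windows of Dnajb1 and Ahsa1 did not hold these letters. Of all 32851 windows of 300 bases, 15.1% held them. By gene they occurred in 17.0% of 27025 genes, in 19 of 58 genes of the other heat shock lists, in 0 of 12 endoplasmic reticulum chaperones and in 1 of 13 immediate early genes. These counts describe letters in a window and not binding.

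Hspa8, the constitutive HSP70 gene, had 4816 UMIs in 1271 of 1916 retained cells. Its level was 1906 and 1575 CPM (UMIs scaled to the summed UMIs of the cells, not divided by gene length) in Akita replicates 1 and 2, and 1308 and 2131 CPM in Wild-type replicates 1 and 2. The wild-type libraries were the lowest and the highest, so the groups overlapped. The stress-induced pair was close to the detection limit, with 21 UMIs of Hspa1a in 18 cells and 14 UMIs of Hspa1b in 13 cells. Hspa1a counted 7, 3, 2 and 9 UMIs and Hspa1b 1, 1, 1 and 11 UMIs in Akita replicates 1 and 2 and Wild-type replicates 1 and 2. Wild-type replicate 2 thus held 11 of the 14 Hspa1b UMIs, and 2 cells had both genes.

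Hsp90ab1, the constitutive HSP90 gene, had 7121 UMIs in 1503 cells. Its level was 2320 and 2444 CPM in Akita and 2151 and 3170.5 CPM in wild type. Hsp90aa1, the stress-responsive HSP90 gene, had 1921 UMIs, with 563 and 667 CPM in Akita and 614 and 858 CPM in wild type. For both HSP90 genes, Wild-type replicate 2 lay above the other 3 libraries. The J-domain gene Dnaja1 had 2452 UMIs, at 701 and 740 CPM in Akita and 688 and 1340 CPM in wild type, again with that library above the rest. Dnajb1, a J-domain partner of stress-induced HSP70, counted 6 and 5 UMIs in Akita and 15 and 30 UMIs in wild type (10.8 and 6.6 against 18.5 and 42.6 CPM), and its groups did not overlap. Ahsa1, the HSP90 activator, had 323 UMIs, at 59.2 and 109 CPM in Akita and 105 and 175 CPM in wild type, with overlapping groups.

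**Figure D1:**
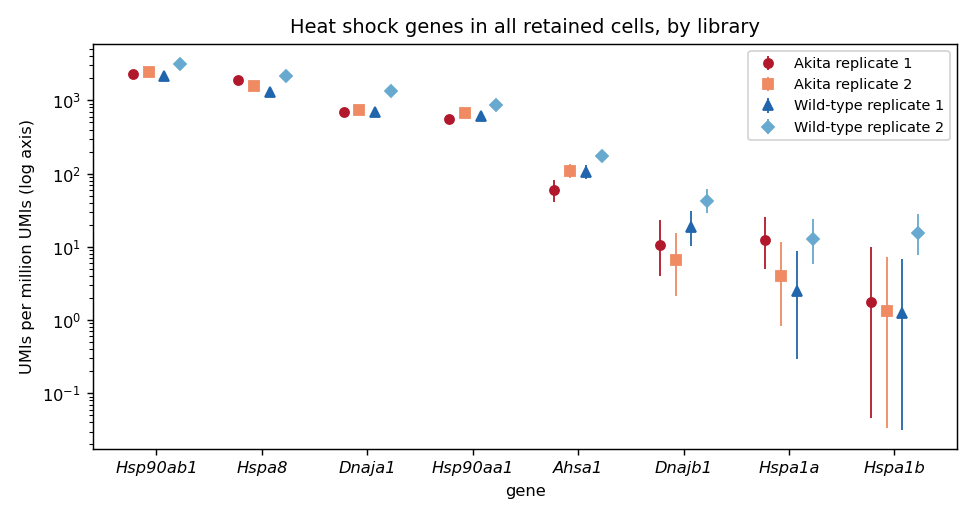
Level in CPM (log axis) of each heat shock gene in all retained cells, 1 point per library, with 95% Poisson intervals that cover counting error only. Wild-type replicate 2 is the highest point for each of the 8 genes, for Hspa1a by a margin inside its interval (12.8 against 12.5 in Akita replicate 1).

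Wild-type replicate 2 was the highest library for 8 of 8 genes over all retained cells, also with each shared barcode in 1 file, for 8 of 8 in the proximal tubule-like cells and for 6 of 8 in the other tubule-like cells. Of the 2812 genes of at least 50 CPM, 33.7% were highest in that library, and of 36 genes of the other heat shock lists at that level, 14 were. The share of all such genes was 28.8% with each shared barcode in 1 file, 32.2% in the proximal tubule-like and 31.1% in the other tubule-like cells. Hspa1a, Hspa1b and Dnajb1 lay below 50 CPM, so these shares do not cover them. Summed, the 8 genes took 0.557% and 0.555% of the UMIs of the Akita replicates and 0.489% and 0.774% of those of the wild-type replicates. The difference of the means, Akita minus wild type, was -0.0756 percentage points (exact two-sided permutation p = 1), in a design whose smallest possible p is 0.3333. Without Wild-type replicate 2 it was 0.0673 percentage points, of the opposite sign. Median mitochondrial shares ranged from 18.4% to 20.3% over the libraries, and that of Wild-type replicate 2 was 18.4%. The part of dissociation or age in the level of that library was not tested.

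The comparison of Akita with wild type asks whether these chaperone transcripts differ between diabetic and non-diabetic cortex. None of the 6 heat shock genes that could be tested was called: edgeR's quasi-likelihood test on UMIs summed per library gave 0 of 7169 genes (0%) at an adjusted p under 0.05, with 68 genes at an unadjusted p under 0.05. DESeq2 and limma-voom also called 0 genes, with 7 and 56 at an unadjusted p under 0.05. Hspa1a and Hspa1b did not pass the filter on low counts. Dnajb1 had a log2 fold change of -1.81 ± 0.56 (SE; unadjusted p = 0.00484, adjusted p = 1.00, n = 2 libraries per group, edgeR), resting on 56 UMIs. Groups that did not overlap with Akita lower, as for Dnajb1, were found for 11% of all tested genes. The log2 fold change was -0.69 ± 0.31 for Ahsa1, -0.48 ± 0.26 for Dnaja1, -0.25 ± 0.22 for Hsp90aa1, -0.16 ± 0.24 for Hsp90ab1 and 0.02 ± 0.24 for Hspa8 (adjusted p = 1.00 for each, edgeR). The median over the 6 tested genes was -0.37, beside 0.00 over all tested genes. In sums over all cells, a change in the mix of cells and a change in RNA per cell cannot be told apart.

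These estimates moved with single libraries. Without Akita replicate 2, Ahsa1 was called, at -1.29 with an adjusted p of 0.0484 in edgeR, beside 5 genes called higher and 18 lower of 8112. In that fit the lone Akita library is assumed to vary like the wild-type pair, which alone gives the spread. Without Wild-type replicate 1, where the Akita pair alone gives it, 10 genes were called higher and 4 lower of 8101, with 0 heat shock genes. Without Akita replicate 1 the counts were 0 and 1 of 7908. Without Wild-type replicate 2, the log2 fold change was -1.16 for Dnajb1, 0.01 for Dnaja1, 0.35 for Hspa8 and 0.09 for Hsp90ab1. With each shared barcode in 1 file, Dnajb1 was at -1.61 ± 0.59, Dnaja1 at -0.32 ± 0.33 and Hsp90ab1 at 0.08 ± 0.31, and 0 heat shock genes were called. Of all 6306 genes tested in that setting, edgeR called 0, but 199 had an unadjusted p under 0.05, more than the 68 as deposited.

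Within the proximal tubule-like cells, 0 of 6 tested heat shock genes and 0 of 6098 genes (0%) were called by edgeR, with 56 genes at an unadjusted p under 0.05 (7 in DESeq2 and 51 in limma-voom, which also called 0). Dnajb1 counted 5 and 3 UMIs in Akita against 13 and 25 UMIs in wild type, a log2 fold change of -1.96 ± 0.64, again without overlap (11% of genes, Akita lower). Dnaja1 was at 801 and 844 CPM in Akita and at 768 and 1566 CPM in wild type, so the groups overlapped. Within the other tubule-like cells (loop of Henle-like, intercalated-like and connecting tubule-like together), 0 of 5 tested heat shock genes and 0 of 2407 genes (0%) were called, with 17 at an unadjusted p under 0.05 (2 in DESeq2 and 15 in limma-voom, which also called 0). With each shared barcode in 1 file, edgeR also called 0 genes in either class. Genes at an unadjusted p under 0.05 were then 138 of 5276 in the proximal tubule-like and 72 of 2105 in the other tubule-like cells. As deposited, leaving out a library moved the counts of called genes. In the proximal tubule-like cells 3 genes were called higher and 8 lower without Akita replicate 2, and 9 higher and 5 lower without Wild-type replicate 1. In the other tubule-like cells 4 were called higher and 1 lower without Akita replicate 2. None of these was one of the 8 heat shock genes. In the other tubule-like cells Dnaja1 was at 356 and 444 CPM in Akita and 366 and 523 CPM in wild type, a log2 fold change of -0.11 ± 0.27.

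The other chaperone genes were not called between the genotypes either. Of the 69 genes of the other heat shock lists, 55 were tested over all cells, 49 in the proximal tubule-like and 32 in the other tubule-like cells, with 0 called in each. Over all cells the log2 fold change was 0.07 ± 0.21 for the HSP110 relative Hspa4 and -0.39 ± 0.30 for Hsph1. It was -0.03 ± 0.21 for the exchange factor Bag1, 0.00 ± 0.20 for the co-chaperone St13, -0.11 ± 0.21 for Hsbp1, which binds heat shock factor, and -0.12 ± 0.22 for the mitochondrial chaperonin Hspd1. Of the endoplasmic reticulum chaperones, Hsp90b1 was at 0.08 ± 0.23 and Hspa5 at 0.33 ± 0.22.

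Between the cell classes, some of the heat shock genes passed the test. Dnaja1 and Hspa8, a J-domain protein and an HSP70, were both lower in the other tubule-like than in the proximal tubule-like cells. The test compared classes within libraries (edgeR with library as a block) and called 3 of 5 tested heat shock genes, 1 higher and 2 lower. The genotype test set 2 libraries against 2 and carried the spread between libraries, so the outcomes of these tests cannot be set against each other. Of all 4293 genes tested, 23.6% were called higher and 24.8% lower (48.5% in either direction), so a call alone does not set these genes apart.

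Dnaja1 was at 801, 844, 768 and 1566 CPM in the proximal tubule-like cells and at 400, 464, 376 and 556 CPM in the loop of Henle-like cells of Akita replicates 1 and 2 and Wild-type replicates 1 and 2. The proximal tubule-like value was the higher one in all 4 libraries, as for 29.9% of all genes tested. The log2 fold change was -1.24 ± 0.13 for other tubule-like against proximal tubule-like cells (adjusted p = 2.39e-06, edgeR) and -1.14 ± 0.14 for loop of Henle-like cells alone (adjusted p = 5.94e-06, edgeR). With each shared barcode in 1 file these were -1.27 ± 0.17 and -1.13 ± 0.18. Dnaja1 overlaps the opposite-strand genes Smu1 and Gm6297, which had 63 and 19 UMIs, and whether the counting used strand is not given in the sources used here.

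Hspa8 was at 2069, 1737, 1348 and 2382 CPM in the proximal tubule-like cells and at 1360, 1210, 1277 and 1202 CPM in the loop of Henle-like cells, in the same order of libraries. The SD over the 4 libraries was 444 CPM in the former and 73.4 CPM in the latter. The log2 fold change was -0.66 ± 0.13 for other tubule-like cells (adjusted p = 0.000565, edgeR) and -0.57 ± 0.14 for loop of Henle-like cells (adjusted p = 0.00260, edgeR). Of the 50-base words in the last 500 transcript bases of Hspa8, 81.8% also occurred in transcripts of 11 other genes, which had 379 UMIs, so its count is uncertain to the extent that reads were split. That share was 39.5% for Ahsa1, 7.76% for Hsp90ab1 and 0% for the other 5 genes.

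Hsp90ab1 was at 2212, 2261, 1966 and 3118 CPM in the proximal tubule-like cells and at 2709, 2989, 2906 and 3362 CPM in the other tubule-like cells, higher in the latter in each library, as for 29% of all genes tested. Its log2 fold change of 0.29 ± 0.11 passed the threshold (adjusted p = 0.0417, edgeR) but did not with each shared barcode in 1 file (0.26 ± 0.14, adjusted p = 0.161) or in DESeq2 (adjusted p = 0.202). It was also lost without Akita replicate 1 (adjusted p = 0.0987, edgeR), Akita replicate 2 (0.113) or Wild-type replicate 1 (0.195). Hsp90aa1 and Ahsa1 did not pass the test, at -0.10 ± 0.12 and -0.17 ± 0.19. In the loop of Henle-like cells 2 of 5 tested heat shock genes were called, both lower, where 22.1% of 3908 genes were called higher and 25.3% lower (47.4% in either direction). There Hsp90ab1 was at 0.19 ± 0.11, Hsp90aa1 at 0.01 ± 0.12 and Ahsa1 at -0.35 ± 0.22.

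**Figure D2:**
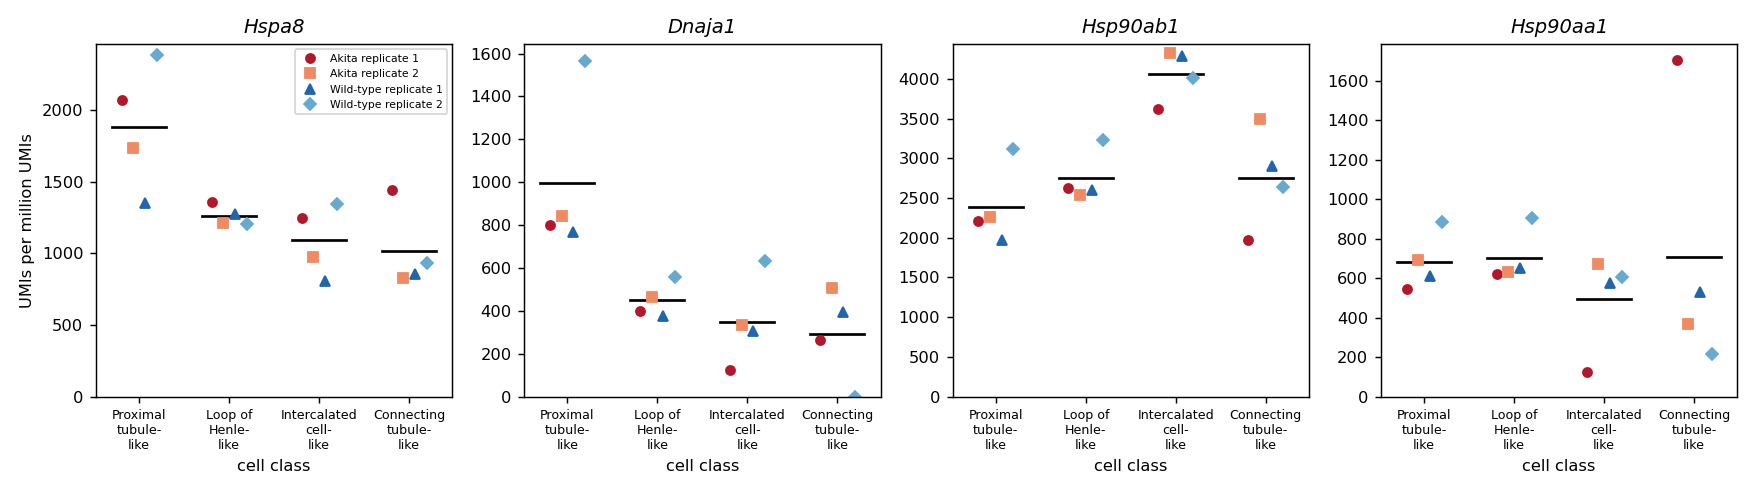
Level in CPM of 4 heat shock genes by cell class, 1 point per library and a bar at the mean of the 4 libraries. The means of Dnaja1 and Hspa8 are highest in the proximal tubule-like cells and that of Hsp90ab1 in the intercalated-like cells; the intercalated-like and connecting tubule-like points of Akita replicate 1 rest on 8 cells each.

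The intercalated-like cells, acid- and base-secreting cells of the distal nephron, were compared in a test added after the data had been seen. It called 4 of 5 tested heat shock genes, 1 higher and 3 lower, where 13.1% of 3456 genes were called higher and 23% lower (36.1% in either direction) and the median log2 fold change of all genes was -0.23. Dnaja1 was at -1.76 ± 0.23, Hspa8 at -1.13 ± 0.18 and Hsp90aa1 at -0.73 ± 0.23 (adjusted p = 1.27e-06, 1.53e-05 and 0.0143, edgeR). Hsp90ab1 was at 3615, 4322, 4294 and 4006 CPM, above the proximal tubule-like value in each library (24.4% of all genes tested), with a log2 fold change of 0.42 ± 0.16 (adjusted p = 0.0432, edgeR). With each shared barcode in 1 file, the calls of Hsp90ab1 (0.17 ± 0.54, adjusted p = 0.878, edgeR) and Hsp90aa1 (-0.87 ± 0.41, adjusted p = 0.122) were lost. In that fit Wild-type replicate 1 kept 1 intercalated-like cell with 552 UMIs, and the part of this in the loss was not tested. Hsp90ab1 was also lost without Akita replicate 1 (adjusted p = 0.139, edgeR), Akita replicate 2 (0.340) or Wild-type replicate 1 (0.144). It was lost in DESeq2 (0.34, adjusted p = 0.257), with DESeq2 size factors in edgeR (adjusted p = 0.0815) and with at least 500 genes per cell (adjusted p = 0.108), and turned to -0.18 with no filter on low counts. Hsp90aa1 was also lost in limma-voom (-0.76, adjusted p = 0.0701). Ahsa1 was at 0.33 ± 0.33. This class had 8, 34, 29 and 39 cells in Akita replicates 1 and 2 and Wild-type replicates 1 and 2.

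The order of the 4 tubule classes differed by gene. Means over libraries were planned only for classes with at least 20 cells in every library. Akita replicate 1 had 8 intercalated-like and 8 connecting tubule-like cells, so the means of these classes fall outside that plan and rest on few cells. For Hspa8 the means were 1884 ± 444 CPM in proximal tubule-like, 1262 ± 73.4 in loop of Henle-like, 1093 ± 247 in intercalated-like and 1015 ± 289 in connecting tubule-like cells (SD, n = 4 libraries), and the last 3 lay within their spread. Dnaja1 followed the same order, at 995 ± 382, 449 ± 80.7, 349 ± 210 and 291 ± 218 CPM. For Hsp90ab1 the order began with intercalated-like cells at 4059 ± 329 CPM. Connecting tubule-like cells at 2753 ± 633, loop of Henle-like cells at 2748 ± 322 and proximal tubule-like cells at 2389 ± 502 followed, and these 3 lay within their spread. These SDs are between libraries and leave out the pairing of classes within a library. Within each library Hsp90ab1 was higher in the other tubule-like than in the proximal tubule-like cells, as given above. In the loop of Henle-like cells Dnajb1 had 1, 2, 2 and 3 UMIs and Hspa1a 5, 1, 1 and 1 UMIs, too few for an order of classes.

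Thinning every cell to 500 UMIs removed differences of depth from the share of cells with a count and left out 474 of 1916 cells. Pooled over libraries, Hspa8 was then seen in 54.2% of 1079 proximal tubule-like cells, against 43.5% of 216 loop of Henle-like cells. By library it was 59.4% against 29.4% in Akita replicate 1 and 45.4% against 37.5% in Wild-type replicate 1. Wild-type replicate 2 had 65.3% against 46.8%, but Akita replicate 2 had 52.9% against 53.5%, with no lower share in the loop of Henle-like cells. Dnaja1 was seen in 32.5% (95% exact binomial interval 29.7 to 35.4) of the pooled proximal tubule-like cells. In the pooled loop of Henle-like cells it was seen in 15.3% (10.8 to 20.8). Hsp90ab1 was seen in 65.1% of the proximal tubule-like cells and in 83.1% (73.7 to 90.2) of 89 intercalated-like cells. Hsp90aa1 ranged from 21.6% to 26.7% across the 4 tubule classes. The intervals cover counting error only. Without thinning, 66.3% of all retained cells had a UMI of Hspa8, 78.4% of Hsp90ab1 and 45.5% of Dnaja1. No class is known to lack these genes, so none gave a background of free RNA. Barcodes below 200 genes carried them as well: in CPM with mitochondrially encoded genes left out of the total, Hsp90ab1 was at 3253 there against 3112 in retained cells, and Hspa8 at 1596 against 2104.

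The S3-like cluster had more Dnaja1 than the S1-like cluster, in a comparison added after the data had been seen. The other proximal tubule-like clusters got no segment name, so a course along the tubule is not shown. Over the 4 libraries, mean Dnaja1 was 528 CPM in S1-like, 958 in S3-like and 995 in all proximal tubule-like cells. Dnaja1 was at 347, 365, 485 and 916 CPM in the S1-like cells and at 791, 839, 850 and 1354 CPM in the S3-like cells of Akita replicates 1 and 2 and Wild-type replicates 1 and 2. It was higher in the S3-like cells of all 4 libraries (20.1% of all genes tested), with a log2 fold change of 0.88 ± 0.20 (adjusted p = 9.95e-05, edgeR), and the call held with each shared barcode in 1 file (0.68 ± 0.22, adjusted p = 0.0253). Hsp90ab1 (0.51 ± 0.16, adjusted p = 0.00719, edgeR) and Hspa8 (0.46 ± 0.16, adjusted p = 0.0231) were called as well, but not with each shared barcode in 1 file (adjusted p = 0.151 and 0.258). Hspa8 was also lost without Akita replicate 1 (adjusted p = 0.0568, edgeR) or Akita replicate 2 (0.150), and Hsp90ab1 without Wild-type replicate 1 (0.0749). Hsp90aa1 was at 0.30 ± 0.20 and not called. Thus 3 of 4 tested heat shock genes were called higher, where 13.2% of 900 genes were called higher and 14.2% lower (27.4% in either direction). Median depths were 761 UMIs per cell in the S1-like and 598.5 in the S3-like cluster, and median mitochondrial shares 25% and 25.5%. The heat shock genes were kept out of the clustering.

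**Figure D3:**
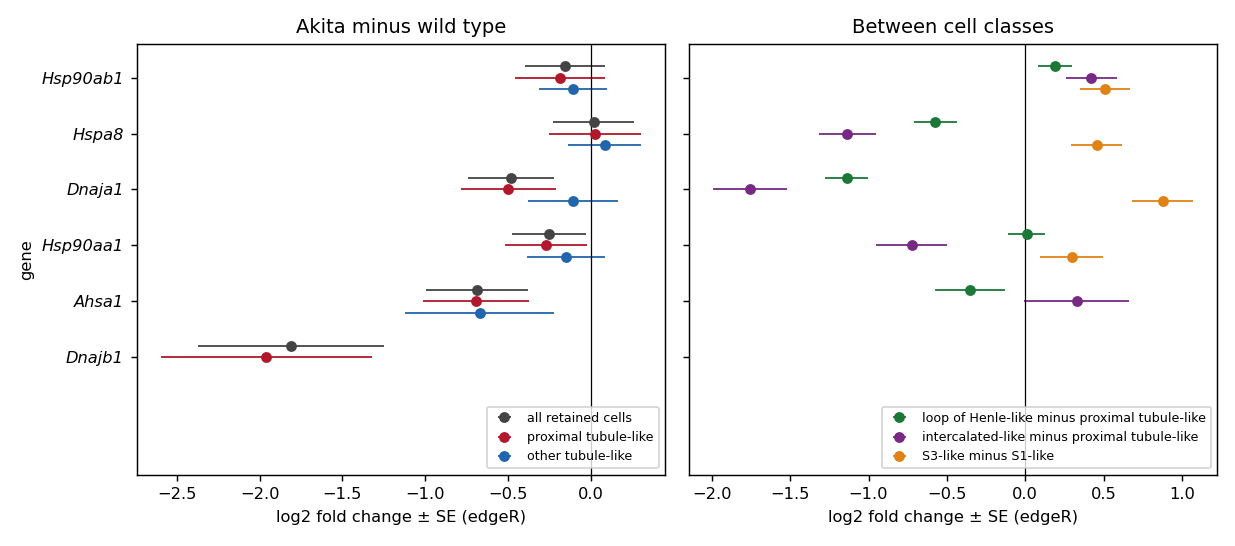
Log2 fold changes from edgeR, with standard errors derived from its test statistic, for the heat shock genes that could be tested. Genotypes are compared on the left and cell classes on the right. Between genotypes no gene passed the threshold; between classes Dnaja1 and Hspa8 lie below 0 for loop of Henle-like and intercalated-like cells and above 0 for S3-like against S1-like cells.

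The other chaperone genes did not move as one group between the classes. Of 69 genes on the other heat shock lists, 41 were tested in other tubule-like against proximal tubule-like cells, of which 5 were called higher and 7 lower. Among all genes tested there, 23.6% were called higher and 24.8% lower, so calls were not more frequent on these lists. The median log2 fold change was 0.06 for the lists beside 0.00 over all genes. The small heat shock protein Cryab (2.81 ± 0.31) and Bag1 (1.28 ± 0.15), an exchange factor that releases clients from HSP70, were called higher. The J-domain gene Dnajb4 (1.33 ± 0.41) and the HSP90 co-chaperones Stip1 (0.60 ± 0.18), which bridges HSP70 and HSP90, and Nudc (0.59 ± 0.20) were higher too. Such genes can pass the filter on low counts through the class where they are high. Cryab was the 1 tested gene of 7 small heat shock proteins here and in the loop of Henle-like and intercalated-like comparisons. In the genotype comparison within proximal tubule-like cells, 0 of these 7 passed the filter. Bag1 was the 1 tested gene of 7 exchange factors.

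Lower were the mitochondrial chaperonin genes Hspd1 (-0.96 ± 0.12) and Hspe1 (-0.77 ± 0.13) and the mitochondrial exchange factor Grpel1 (-0.61 ± 0.21), which makes 3 of 6 tested mitochondrial chaperones called lower and 0 higher, where 24.8% of all genes were called lower and 23.6% higher. The subunits Cct6a (-0.86 ± 0.19) and Cct8 (-0.81 ± 0.29) of the cytosolic chaperonin TRiC, the HSP70-binding St13 (-0.47 ± 0.13) and the J-domain gene Dnajc2 (-0.97 ± 0.19) were lower as well. Of the lists with no call, Hspa4 was at 0.19 ± 0.16, Hsph1 at 0.46 ± 0.25 and Hsbp1 at 0.29 ± 0.15. In the loop of Henle-like cells alone, 4 of 39 tested genes were called higher (Cryab 2.69, Bag1 1.504, Nudc 0.80 and Cdc37l1 0.58) and 5 lower (Dnajc2 -1.31, Cct6a -1.25, Hspd1 -0.999, Hspe1 -0.68 and St13 -0.55). Among all genes tested in that comparison, 22.1% were called higher and 25.3% lower.
In the intercalated-like cells Cryab (3.25), Dnajb4 (1.59) and Dnajb2 (1.43) were called higher and Hspd1 (-1.05), Hspe1 (-1.10) and Grpel1 (-1.31) lower, of 41 tested. Among all genes tested in that class, 13.1% were called higher and 23% lower. Hspd1 was the 1 gene of 7 tested that was called in the S3-like against the S1-like cells, where it was higher (0.79 ± 0.20), as were 13.2% of all genes tested.

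Of 11 tested endoplasmic reticulum chaperones, Hspa5 (-0.32 ± 0.11), Calr (-0.33 ± 0.12) and Manf (-1.001 ± 0.22) were lower in the other tubule-like cells and Pdia6 (0.55 ± 0.22) higher. Of all genes tested there, 23.6% were called higher and 24.8% lower. Only 3 of the 15 immediate early genes, which respond fast to stimuli such as dissociation, passed the filter on low counts. A gene can pass that filter through the class where it is high. These 3 immediate early genes were all called higher in the other tubule-like cells: Jun (1.87 ± 0.38), Jund (0.85 ± 0.19) and Ier3 (4.59 ± 0.34). Their part in the differences of the heat shock genes was not tested.

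The share of mitochondrial UMIs, a common measure of cell quality, was set beside the genes within the proximal tubule-like cells. In CPM with mitochondrially encoded genes left out of the total, Dnaja1 was at 1513 in the 461 cells under 15% mitochondrial UMIs and between 948 and 1071 in the bins above. Ahsa1 was at 203 in the lowest bin and between 77.8 and 99.9 above it, although in Akita replicate 1 the lowest bin, at 62.1 on 8 UMIs, was not its highest. Hspa8 lay between 2142 and 2534 with no order along the bins. Hsp90ab1 was at 3184 in the lowest and 3039 in the highest bin, with lower values between. What sets these values was not tested.

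**Figure D4:**
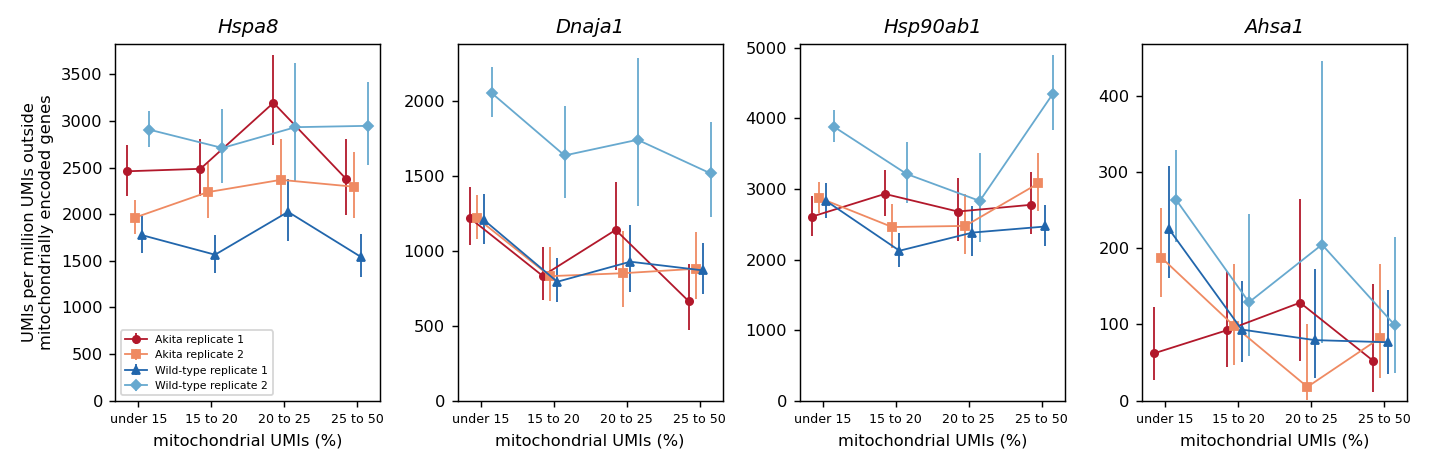
CPM with mitochondrially encoded genes left out of the total, in proximal tubule-like cells, by bin of mitochondrial share, for 4 heat shock genes and each library, with 95% Poisson intervals (counting error only). Dnaja1 is highest in the bin under 15% in each library, between 1202 and 2051, and Wild-type replicate 2 lies above the other libraries for Dnaja1 in every bin.

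In thinned proximal tubule-like cells the variance was 1.23 times the mean for Hspa8, 1.18 for Hsp90ab1, 1.24 for Hsp90aa1 and 1.20 for Dnaja1, where pure counting gives 1. At means of 0.854, 1.16, 0.336 and 0.433 UMIs per thinned cell, counting makes up most of this variance. How much the expression differs from cell to cell was not estimated from these ratios. Across 34 sums of a cluster in a library with at least 20 cells, the genes most like Hspa8 among 2826 genes were Ldhd (Spearman 0.85), Inmt (0.83), Cndp2 (0.83), Pecr (0.81) and Keg1 (0.80), while Dnaja1 stood at 0.74 and Hsp90ab1 at -0.04. For Hspa1a plus Hspa1b they were Arhgef28 (0.62), Dlat (0.61), Kcnj10 (0.61), Ccdc47 (0.59) and Rabep1 (0.56), on few UMIs of the pair. These sums share libraries, barcodes and depth, so the values are descriptions.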

How the data were processed

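Drop-seq UMI counts of 4 libraries (2 Akita, 2 wild type, each labelled with a different age and treated as separate mice) were used. The deposited values are raw UMI counts per gene and barcode, per the file headers; the genome build GRCm38 and the tools featureCounts 1.6.0, STAR 2.5.2b and UMI-tools 0.5.3 are named in the submitters' processing notes, without settings. Ensembl identifiers were matched to GENCODE symbols. In each file 4 strings that were no barcodes, with 1.08% to 1.33% of the UMIs, were left out. No doublet caller was run and doublets were not removed.

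Retained cells were clustered together (scanpy 1.11.5, leidenalg 0.10.2, 2000 variable genes, 30 components, 15 neighbours) without heat shock, endoplasmic reticulum chaperone and immediate early genes. A cluster was named where at least 3 markers of a type were among its 50 leading genes, with ties broken by its 10 leading genes. Clusters left unnamed were ranked again against cells named other than proximal tubule. Clusters of 228 and 62 cells were named proximal tubule-like only in that second ranking. Cells were not used as replicates: counts were summed per library and class and tested with edgeR 4.0.16 in R 4.3.3 (TMM, a filter on low counts, two-sided quasi-likelihood test, Benjamini-Hochberg over all tested genes, threshold 0.05), with library as a block between classes. With 2 libraries per group, p-values measure the spread between these libraries. The quasi-likelihood test gives no standard error. Those printed for edgeR are the absolute log2 fold change divided by the square root of the F statistic. DESeq2 1.42.0, limma 3.58.1, other filters, clusterings and barcode rules, left-out libraries and a replicate block were the alternatives. The code was tested on simulated data.

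The heat shock genes and all gene lists were chosen with earlier results of these data known. The rule named all 8 genes in every comparison and, of each other list, up to 6 genes per direction with an adjusted p under 0.05, or its 2 genes of highest mean CPM where there was none; of the latter, a part is printed.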

Additional observations from a re-analysis of the deposited data

Results flagged for a closer look

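In barcodes with fewer than 200 detected genes, which enter no comparison, Ahsa1 was at 100.4 and 108.8 CPM (mitochondrially encoded genes left out of the total) in Akita replicates 1 and 2, above the 74.8 and 88.4 of Wild-type replicates 1 and 2. These values rest on 11, 13, 8 and 11 UMIs, and their 95% Poisson intervals overlap. On the same scale, Ahsa1 in retained cells was at 73.5 and 133.7 in the Akita replicates and 131.5 and 212.0 in the wild-type replicates. The groups overlapped there. Scaled to all UMIs, its mean CPM in retained cells was 83.8 in Akita and 140 in wild type.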

How the results depend on the processing

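Dnaja1 and Hspa8 stayed called and lower in other tubule-like and in loop of Henle-like than in proximal tubule-like cells under all 16 alternatives of each comparison, and in intercalated-like cells under all 15 that were run. Leaving out the shared barcodes was not run there, as 1 library then had no such cells. Between genotypes, 0 heat shock genes were called under each alternative except without Akita replicate 2 in all cells (range 0 to 1 over the libraries left out). The calls in intercalated-like cells fell from 4 to 2 with each shared barcode in 1 file, where Wild-type replicate 1 kept 1 such cell. Those in S3-like cells fell from 3 to 1 with each shared barcode in 1 file, to 1 with the shared barcodes left out and to 1 in DESeq2. The cause was not tested.

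Signs reversed for genes that were not called and for Hsp90ab1 in intercalated-like cells. With 1 library left out, the Akita minus wild-type log2 fold change ran from -0.26 to 0.35 for Hspa8, -0.37 to 0.0903 for Hsp90ab1 and -0.85 to 0.0103 for Dnaja1 over all cells. In proximal tubule-like cells it ran from -0.29 to 0.43, -0.44 to 0.13 and -0.88 to 0.0419. In other tubule-like cells it ran from -0.0439 to 0.21 for Hspa8 and -0.30 to 0.14 for Dnaja1. The summed share ran from -0.218 to 0.0673 percentage points, and Hsp90aa1 in loop of Henle-like cells from -0.10 to 0.10. With each shared barcode in 1 file, Hsp90ab1 was 0.0844 over all, 0.0523 in proximal tubule-like and 0.12 in other tubule-like cells, Hsp90aa1 0.0237 in proximal tubule-like and Hspa8 -0.0228 in other tubule-like cells. In DESeq2 on the same cells these were 0.0843, 0.0591, 0.12, 0.0324 and -0.0342. With the replicate block on the same cells they were 0.13, 0.11, 0.14, 0.0367 and -0.0282, with Dnaja1 at 0.0122 in other tubule-like cells. With shared barcodes left out, Hsp90ab1 was 0.0284 over all and 0.22 in other tubule-like cells between genotypes and -0.0395 in loop of Henle-like cells, and Hsp90aa1 0.0233 in other tubule-like against proximal tubule-like cells. With no filter on low counts, Hspa8 was -0.0152 between genotypes in proximal tubule-like cells, Hsp90aa1 -0.28 and Hsp90ab1 -0.0988 in loop of Henle-like cells, and Hsp90ab1 -0.18 and Ahsa1 -0.27 in intercalated-like cells. Hsp90aa1 in loop of Henle-like cells was -0.00283 with DESeq2 size factors and -0.0413 at Leiden resolution 2, and Ahsa1 in intercalated-like cells -0.0407 with at least 500 genes per cell. In S3-like cells Hsp90aa1 was -0.0434 with at most 25% mitochondrial UMIs and -0.00285 with each shared barcode in 1 file.

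Same-numbered libraries deviated from their group means with a correlation of -0.135 over 2812 genes, and the labels tie the numbers to nothing else. The replicate block called 0 heat shock genes and 0 genes in each genotype comparison, as did the block with the numbers crossed, which was chosen after seeing the data. With each shared barcode in 1 file, the replicate block, also chosen after seeing the data, called 11 genes in proximal tubule-like and 2 in other tubule-like cells, 0 of them heat shock genes. Depth limits Hspa1a, Hspa1b and Dnajb1, at 21, 14 and 56 UMIs.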
